A study of Mus musculus with 4 samples.

Results

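A list of 43 mouse genes around the tumour suppressor p53 and the exit from the cell cycle was followed in bone marrow stromal cells with and without Cre recombinase. The list holds p53 itself and its regulators, inhibitors of cyclin-dependent kinases (CDKs), G1 cyclins, the retinoblastoma family, targets of p53 in growth arrest, cell death and repair, and lamin B1. Genes were taken by symbol from the 44788 genes of the deposited count table. All 43 were found, 42 under the listed symbol and Tigar under an older one, 9630033F20Rik. Enough reads for a test were found for 42 of them, and not for Perp.

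The cells came from C57BL/6J mice homozygous for a conditional Setd2 allele (Setd2 fl/fl) and were at passage 2. Setd2 encodes the enzyme that trimethylates lysine 36 of histone H3 along transcribed genes. There were 2 libraries from cells given a lentivirus that expresses Cre, the knockout group, and 2 from cells given a lentivirus that expresses GFP, the wild-type control group. All 4 started from the same allele and were held in 2 µg/ml puromycin for 4 days. Setd2 (chr9:110532500-110618633, plus strand) had 38.1 and 32.3 CPM (counts per 1000000 reads, scaled for library composition) in the Cre libraries, against 107 and 106 CPM in the GFP libraries. It fell by 1.60 on the log2 scale (standard error, SE, 0.08, adjusted p = 3.65e-15, edgeR's quasi-likelihood test). With GFP replicate 2 left out, its log2 fold change was -1.59, in a fit where no gene passed (0 called, 2197 at an unadjusted p under 0.05). Because GFP was the only control, loss of Setd2 and the presence of Cre cannot be told apart in any result below. Nothing in the labels ties replicates to different mice or dishes, so each p-value weighs a difference against the spread of these 4 libraries alone, which may be technical.

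The libraries held 14311924 and 14315903 counted reads with Cre, against 12806928 and 12371994 with GFP. A count of 3 corresponded to 0.207 to 0.255 CPM, and the tested genes of the list had 145 to 13213 counts per library. Reads of Rn18s-rs5, an 18S ribosomal RNA gene, made up 1.35% and 1.21% of the counts in the Cre libraries, against 2.07% and 7.45% in the GFP libraries. GFP replicate 2 therefore stood apart. With the abundant noncoding genes left out, the numbers of listed and of mitosis genes that passed the test were as with them, 4 and 20. Leaving these genes out concerns their own reads only, and cannot show whether GFP replicate 2 differed in other ways.

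The p53 protein is a transcription factor that is kept low by Mdm2 and Mdm4 and accumulates when DNA is damaged or growth signals are abnormal. It switches on genes for arrest, death and repair, and among them Cdkn1a, whose product blocks CDKs. With CDKs blocked, the retinoblastoma family stays unphosphorylated, and its members in the DREAM complex then repress mitosis genes through a promoter element called the cell cycle genes homology region (CHR). Stromal cells in culture are known to leave the cycle with passage, often with higher Cdkn2a and Cdkn1a and less lamin B1.

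Most of the p53 and cell-cycle exit genes had similar levels in both groups. A gene was called higher or lower when its adjusted p was under 0.05 (edgeR's quasi-likelihood test, Benjamini-Hochberg over 14483 genes). Of the 42 tested genes, 3 rose with Cre, namely the atypical cyclin gene Ccng2, the death gene Pmaip1 and the kinase gene Plk2, and 1 fell, the death receptor gene Eda2r. That is 9.52% of the list, beside 6.97% of all tested genes (1009 of 14483). By direction, 7.14% of the list rose, beside 3.74% of all tested genes (542), and 2.38% fell, beside 3.22% (467). The median log2 fold change of the list, Cre over GFP, was -0.02, beside -0.00 for all tested genes, and the median size without sign was 0.11, beside 0.12. There were 19 genes with a log2 fold change of less than 0.1 in either direction. In 27 of the 42 genes (64.3%) the CPM of the 2 groups did not overlap, 11 higher and 16 lower with Cre, beside 50.0% of all tested genes.

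The intervals were narrow. For all 42 genes the 95% interval of the difference lay within a 1.5-fold change in either direction, and its outermost bounds were 1.42-fold and 0.726-fold. A change of that size or less was not excluded for single genes. The 4 calls rested on small differences. DESeq2 called 0 of the 42, with 8 at an unadjusted p under 0.05, and limma-voom and edgeR with robust dispersion estimates each called 5, adding the cyclin gene Ccnd1. With scaling by library size alone or with no low-count filter edgeR called 0. With 1 library left out, 1 gene of the list passed without Cre replicate 1 (Eda2r, adjusted p = 0.0452), and 0 passed without Cre replicate 2, without GFP replicate 1 or without GFP replicate 2, while over all genes 516, 373, 12 and 0 passed.

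**Figure D1:**
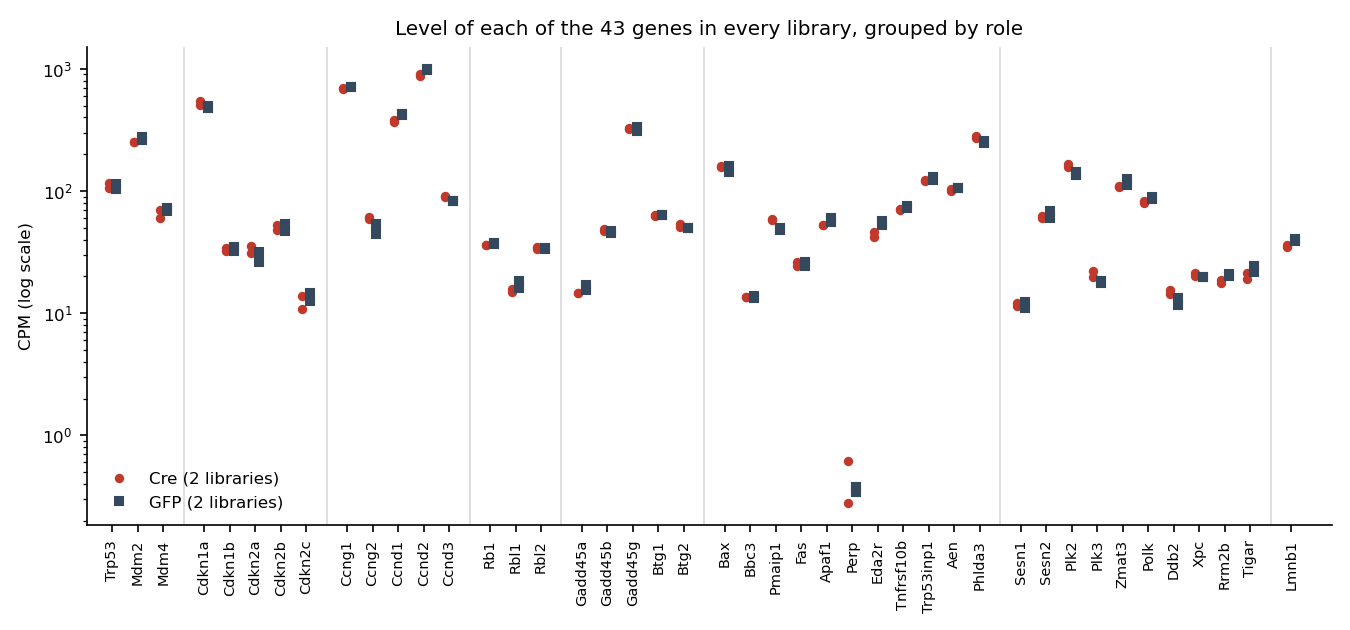
CPM on a log axis of each of the 43 genes in the 2 Cre libraries (circles) and the 2 GFP libraries (squares), with the genes grouped by role. The libraries lie close together for nearly every gene, from Perp under 1 CPM to Ccnd2 near the top of the axis.

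**Figure D2:**
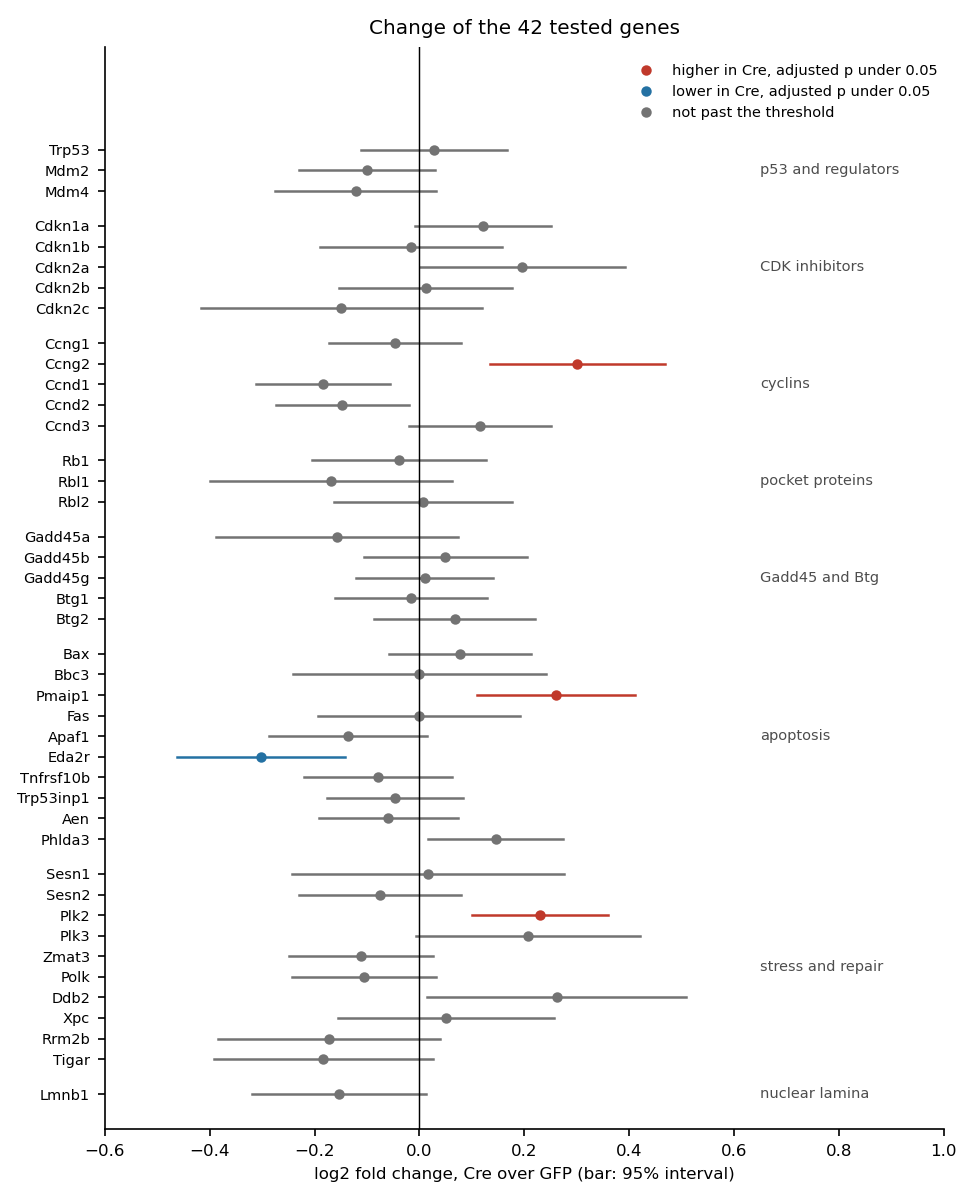
Log2 fold change, Cre over GFP, of the 42 tested genes with its 95% interval, in role order. The coloured points are the 3 genes that rose (Ccng2, Pmaip1, Plk2) and the 1 that fell (Eda2r), and no interval reaches a 1.5-fold change.

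Promoters of the list were read for the p53 decamer, the consensus of 10 bases that occurs in pairs in p53 response elements and reads the same on both strands. The RefSeq windows (GRCm38.p6) ran from 250 bases before to 50 after each start, and 31 of the 43 genes had at least 1. Of their 41 windows, 10 (24.4%) held a decamer, beside 8.36% of the 32851 windows of all genes. In other lists described below, the share was 11.4% for p53 targets outside the list (4 of 35 windows). It was 10.0% for mitosis genes (3 of 30) and 8.0% for replication genes (2 of 25). The 4 windows chosen here belong to well known p53 targets of the list whose windows held a match. Each is shown as 60 bases, 5′ to 3′ on the strand of the gene, with the decamers in capitals.
Cdkn1a, chr17:29090892-29090951, plus strand: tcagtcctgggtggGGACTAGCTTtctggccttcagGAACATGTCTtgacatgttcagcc
Mdm2, chr10:117710910-117710969, minus strand: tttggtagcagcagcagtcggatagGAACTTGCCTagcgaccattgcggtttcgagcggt
Ccng1, chr11:40755437-40755496, minus strand: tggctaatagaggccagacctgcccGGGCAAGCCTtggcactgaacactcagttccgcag
Bax, chr7:45467065-45467124, minus strand: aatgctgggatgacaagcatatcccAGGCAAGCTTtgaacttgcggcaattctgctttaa
In Cdkn1a a pair of decamers stood within the 0 to 13 bases that the search allowed between them, which 1 of the 41 windows of the list (2.44%) and 24 of all windows (0.0731%) held. Only exact matches were sought, so a decamer with a mismatch is not in capitals. Which of these bases p53 binds was not tested. The other genes with a decamer were Aen, Gadd45a, Polk, Sesn1 and Trp53. Of these 9 genes 0 were called by edgeR, beside 6.97% of all tested genes, and their log2 fold changes ran from -0.16 to 0.12. The windows of Ccng2, Plk2 and Eda2r, which did change, held no decamer, which says only that these letters are not in those windows.

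Trp53 and the genes of its regulators did not pass the test. Trp53 (chr11:69580348-69591873, plus strand) had 106 and 117 CPM in the Cre libraries, against 114 and 104 CPM in the GFP libraries. The groups overlapped, and the log2 fold change was 0.03 (SE 0.07, 95% interval -0.11 to 0.17, adjusted p = 0.871). A pseudogene in the table, Trp53-ps, had 123 and 134 counts with Cre and 124 and 127 with GFP, so reads of near-identical sequence may have been shared. Mdm2, which encodes the ubiquitin ligase for p53 and is itself a p53 target, had 252 and 251 CPM with Cre, against 263 and 277 CPM with GFP. Both Cre libraries were below both GFP libraries, by a log2 fold change of -0.10 that did not pass (SE 0.06, 95% interval -0.23 to 0.03, adjusted p = 0.390). Mdm4, the partner of Mdm2 in holding p53 inactive, had 69.8 and 60.3 CPM with Cre and 72.3 and 69.1 CPM with GFP, with overlapping groups.

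Of the 5 CDK inhibitor genes, 0 passed in edgeR, DESeq2 or limma-voom. In edgeR 1 had an unadjusted p under 0.05 (20%, beside 20.9% of all tested genes). Over all tested genes edgeR called 6.97%. Cdkn1a (chr17:29090979-29100722, plus strand), which encodes the inhibitor that p53 induces, had 509 and 548 CPM with Cre, against 493 and 479 CPM with GFP. Both Cre libraries were above both GFP libraries, and Cre replicate 2 was the highest of the 4. The means were 528 ± 27.6 CPM with Cre and 486 ± 9.87 CPM with GFP (SD, n = 2 each), and the log2 fold change was 0.12 (SE 0.06, 95% interval -0.01 to 0.25, adjusted p = 0.280). Cdkn2a (chr4:89274473-89294619, minus strand), the locus of an inhibitor of CDK4 and CDK6 and of a separate protein that inhibits Mdm2, had 31.2 and 35.2 CPM with Cre, against 31.7 and 26.1 CPM with GFP. Here the groups overlapped, GFP replicate 2 was the lowest, and the log2 fold change of 0.20 did not pass (SE 0.10, 95% interval 0.00 to 0.39, adjusted p = 0.236). The table has 1 total for Cdkn2a, so its products could not be counted apart.

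The 3 remaining inhibitor genes overlapped between the groups. Cdkn1b, which encodes the inhibitor of CDK2 that accumulates in resting cells, had 34.1 and 32.3 CPM with Cre and 34.6 and 32.5 CPM with GFP. Cdkn2b, the neighbour of Cdkn2a and a target of TGF-beta signalling, had 48.0 and 53.1 CPM with Cre and 53.3 and 46.8 CPM with GFP. Cdkn2c, another inhibitor of CDK4 and CDK6, had 10.9 and 13.8 CPM with Cre and 14.7 and 12.6 CPM with GFP, and its interval was the widest of the 5, from -0.42 to 0.12.

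Among the cyclin genes, Ccng2 rose. It encodes cyclin G2, an atypical cyclin that is raised when cells stop dividing and is a known target of FoxO factors. Ccng2 (chr5:93267573-93276231, plus strand) had 61.6 and 59.2 CPM in the Cre libraries, against 53.6 and 44.1 CPM in the GFP libraries. Both Cre libraries were above both GFP libraries, which differed more from each other than the Cre libraries did. The means were 60.4 ± 1.72 CPM with Cre and 48.8 ± 6.70 CPM with GFP (SD, n = 2 each), and the log2 fold change was 0.30 (SE 0.08, adjusted p = 0.0199). Without GFP replicate 2 the value was 0.17, and without GFP replicate 1 it was 0.45, and neither passed.

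Ccng1, its relative and a p53 target, did not follow it. It had 685 and 696 CPM with Cre, against 716 and 711 CPM with GFP, a log2 fold change of -0.05 (95% interval -0.17 to 0.08).

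The D cyclins activate CDK4 and CDK6 and start the phosphorylation of the retinoblastoma protein. Ccnd1 (chr7:144929931-144939831, minus strand) had 378 and 369 CPM with Cre, against 429 and 419 CPM with GFP. All Cre values were below all GFP values, by a log2 fold change of -0.18 that missed the threshold in edgeR (SE 0.06, 95% interval -0.31 to -0.06, adjusted p = 0.0728) and passed in limma-voom (adjusted p = 0.0442) and in edgeR with robust dispersion estimates (adjusted p = 0.0420). Its counts are uncertain, because the neighbouring gene LTO1, on the opposite strand, covers 23.4% of its exon bases and the library kit keeps no strand. Ccnd2 had 914 and 872 CPM with Cre, against 977 and 1001 CPM with GFP, also without overlap (log2 fold change -0.15, adjusted p = 0.163). Ccnd3 stood the other way, with 88.9 and 90.7 CPM in the Cre libraries and 82.4 and 83.5 CPM in the GFP libraries (0.12, adjusted p = 0.336).

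Of the 3 retinoblastoma family genes, which hold E2F target genes silent, 0 passed in edgeR, and 0 had an unadjusted p under 0.05. Over all tested genes the shares were 6.97% and 20.9%. Rb1 had 36.3 and 36.0 CPM with Cre and 36.6 and 37.6 CPM with GFP. Rbl1, whose product is most abundant in cycling cells, had 15.7 and 14.9 CPM with Cre and 16.1 and 18.3 CPM with GFP. Rbl2, which encodes the subunit of DREAM in resting cells, had 34.5 and 33.7 CPM with Cre and 33.5 and 34.4 CPM with GFP. The groups of Rbl2 overlapped, while Rb1 and Rbl1 had slightly lower values with Cre, with log2 fold changes of -0.04 and -0.17.

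The stress sensors of the Gadd45 family and the antiproliferative genes Btg1 and Btg2 were likewise close between the groups. Of these 5, 0 were called by edgeR and 0 had an unadjusted p under 0.05, beside 6.97% and 20.9% of all tested genes. Gadd45a, the family member that p53 induces after DNA damage, had 14.5 and 14.7 CPM with Cre, against 17.0 and 15.5 CPM with GFP (log2 fold change -0.16, 95% interval -0.39 to 0.07). Gadd45g had 320 and 328 CPM with Cre and 332 and 310 CPM with GFP, and Gadd45b lay within 45.6 to 48.5 CPM in the 4 libraries. Btg1 lay within 62.0 to 63.7 CPM. Btg2, a direct p53 target, had 50.4 and 53.6 CPM with Cre and 49.7 and 49.5 CPM with GFP (0.07, 95% interval -0.09 to 0.22).

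The cell death genes held 2 of the 4 calls, in opposite directions (20% of the 10 tested, beside 6.97% of all tested genes). Pmaip1 (chromosome 18) encodes Noxa, a BH3-only protein that frees cell death effectors by binding Mcl1 and that p53 and other stress factors induce. It had 59.1 and 58.0 CPM with Cre, against 49.4 and 48.3 CPM with GFP. The gap between the groups was far wider than the gap within either, with means of 58.5 ± 0.789 CPM with Cre and 48.8 ± 0.785 CPM with GFP (SD, n = 2 each). Pmaip1 rose by a log2 fold change of 0.26 (SE 0.07, adjusted p = 0.0268). With each library left out in turn the value stayed between 0.25 and 0.28.

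Eda2r (chrX:97333837-97377234, minus strand) encodes the receptor for ectodysplasin A2, a p53 target of the tumour necrosis factor receptor family. It had 46.4 and 42.2 CPM with Cre, against 52.7 and 56.8 CPM with GFP. Both Cre libraries were below both GFP libraries, with means of 44.3 ± 2.98 CPM with Cre and 54.7 ± 2.92 CPM with GFP (SD, n = 2 each). Eda2r fell, with a log2 fold change of -0.30 (SE 0.08, adjusted p = 0.0142) that ran from -0.37 to -0.24 when 1 library was left out.

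The other 8 tested death genes did not pass. The pore-forming effector gene Bax had 158 and 160 CPM with Cre, against 160 and 142 CPM with GFP. Bbc3, which encodes the BH3-only protein Puma, had 13.5 and 13.7 CPM with Cre, against 13.3 and 13.9 CPM with GFP. For Puma the log2 fold change was 0.00 (95% interval -0.24 to 0.24), so that the pair of BH3-only genes on the list, Bbc3 and Pmaip1, had different values in the same libraries; the difference between them was not tested. Phlda3, a repressor of Akt signalling that p53 induces, had 274 and 282 CPM with Cre, against 247 and 256 CPM with GFP. Its groups did not overlap, and its adjusted p was 0.175 (log2 fold change 0.15, 95% interval 0.02 to 0.27).

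Apaf1, the scaffold of the apoptosome, had 53.1 and 52.7 CPM with Cre, against 56.2 and 60.1 CPM with GFP (log2 fold change -0.14, adjusted p = 0.300). The death receptor genes Fas (-0.00) and Tnfrsf10b (-0.08), the p53-induced autophagy gene Trp53inp1 (-0.05) and the exonuclease gene Aen (-0.06) had log2 fold changes near 0. Perp, an effector gene of p53 at cell junctions, had 4 and 9 counts with Cre and 5 and 4 counts with GFP, 0.277 and 0.622 CPM against 0.381 and 0.341 CPM. These values lie near the level of 3 counts, and no change was assessed.

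In the group of stress and repair targets Plk2 rose. Plk2 encodes a polo-like kinase of stress responses and centriole duplication that p53 induces. Plk2 (chr13:110395044-110400844, plus strand) had 158 and 167 CPM with Cre, against 142 and 135 CPM with GFP. Both Cre libraries were above both GFP libraries, with means of 162 ± 6.16 CPM with Cre and 138 ± 4.59 CPM with GFP (SD, n = 2 each). The log2 fold change was 0.23 (SE 0.06, adjusted p = 0.0231), and it ran from 0.19 to 0.28 when 1 library was left out. Its relative Plk3 had 19.7 and 22.0 CPM with Cre, against 17.7 and 18.5 CPM with GFP, without overlap but short of the threshold (0.21, adjusted p = 0.259).

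The repair genes of the list did not share 1 direction. Ddb2, the damage sensor of nucleotide excision repair, had 14.3 and 15.5 CPM with Cre, against 11.7 and 13.2 CPM with GFP (log2 fold change 0.26, 95% interval 0.01 to 0.51, adjusted p = 0.206), and 23.8% of its exon bases are shared with Acp2. Xpc, the other sensor, had 21.2 and 20.0 CPM with Cre and 19.9 in both GFP libraries. Rrm2b, the p53-induced subunit of ribonucleotide reductase, had 18.8 and 17.6 CPM with Cre, against 20.0 and 20.9 CPM with GFP (-0.17, adjusted p = 0.358). Polk, a translesion polymerase gene, stood at -0.11. None of these 4 passed in edgeR.

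The antioxidant, RNA-binding and metabolic targets did not pass either. Sesn1 (0.02) and Sesn2 (-0.07), which encode stress-induced inhibitors of mTORC1, had overlapping groups. Zmat3, an RNA-binding p53 target, had 108 and 111 CPM with Cre, against 112 and 125 CPM with GFP (-0.11, adjusted p = 0.361). Tigar, a phosphatase that lowers glycolysis, had 21.5 and 19.1 CPM with Cre, against 24.4 and 21.5 CPM with GFP (-0.18, adjusted p = 0.321). Lmnb1, which encodes the lamin that is lost in senescent cells, had 36.1 and 34.8 CPM with Cre, against 38.6 and 40.2 CPM with GFP. Its Cre values were below its GFP values, and the difference did not pass (-0.15, 95% interval -0.32 to 0.01, adjusted p = 0.288).

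**Figure D3:**
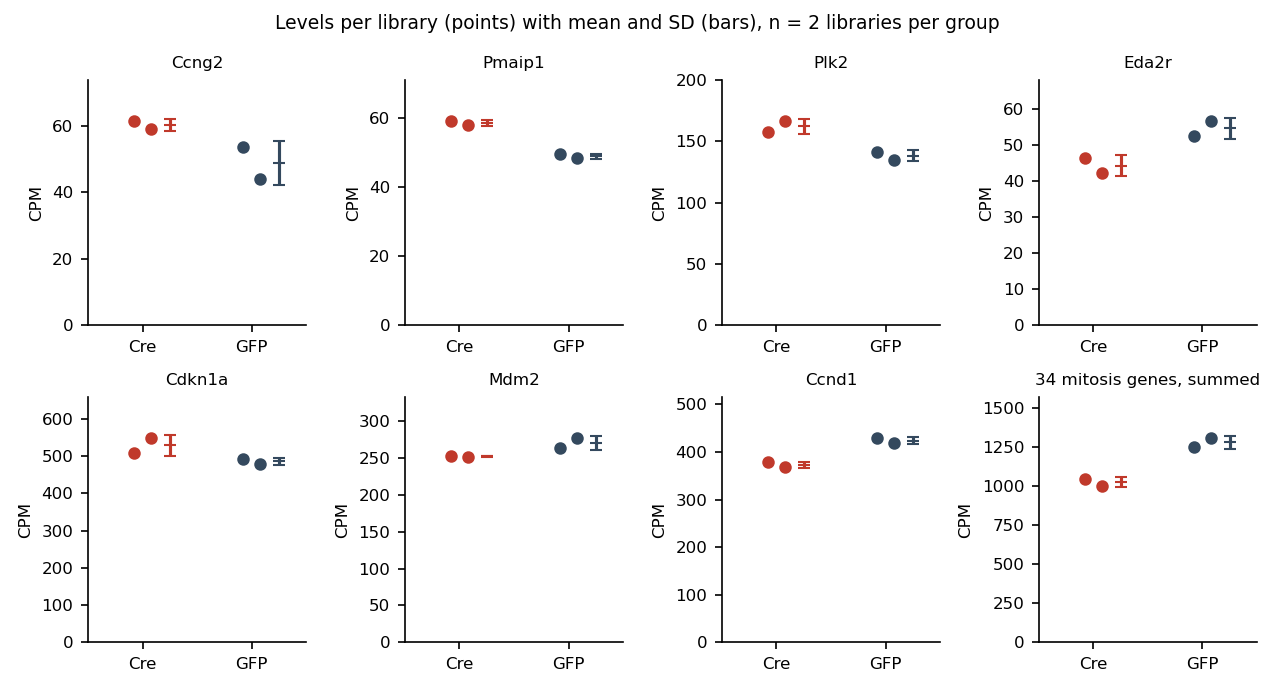
CPM in each library of the 4 called genes, of Cdkn1a, Mdm2 and Ccnd1, and of the 34 mitosis genes summed, with mean and SD (n = 2), Cre left of GFP, on axes that start at 0. Ccng2, Pmaip1 and Plk2 are higher and Eda2r lower with Cre, and the mitosis sum is lower with Cre.

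Per kilobase of exon, the scale on which genes can be compared, the genes of the list differed widely in level. Averaged over the 4 libraries, Gadd45g had 275 CPM per kb, Ccng1 200, Phlda3 170 and Cdkn1a 143, followed by Ccnd2, Bax at 98.3 and Ccnd1 at 84.7 CPM per kb. Mdm2 had 51.3 and Trp53 27.3 CPM per kb. Sesn1 (2.95), Rbl1 (2.71) and Rrm2b (2.11) were the lowest of the tested genes. Both groups therefore expressed p53 and its best known target genes at readable levels. The macrophage marker gene Lyz2 had 1174 CPM per kb in the same libraries, so these bulk levels cannot be assigned to stromal cells alone. The counts of Rbl2, Gadd45a, Rb1 and Bax are uncertain, as those of Ccnd1 and Ddb2 are, because more than 10% of their exon bases overlap another gene.

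Other p53 targets, taken from 26 genes outside the list such as Ppm1d and Gdf15, did not pass the test either. Of the 26, 0 were called by edgeR, by DESeq2 or by limma-voom, and 1 passed with robust dispersion estimates (Steap3). In edgeR 5 had an unadjusted p under 0.05 (19.2%, beside 20.9% of all tested genes), a share near that over all genes, and 0 of 26 called stands beside 6.97% of all tested genes. Their median log2 fold change was 0.04, and they ran from -0.33 to 0.40. Among 13 kinases and cofactors that act on p53, the median was -0.13 and 1 gene fell (7.69%, beside 6.97% of all tested genes called), Atm, which encodes the kinase that signals DNA breaks to p53. Atm had 33.7 and 30.3 CPM with Cre, against 38.4 and 40.7 CPM with GFP (log2 fold change -0.30, SE 0.08, adjusted p = 0.0248), and did not pass with DESeq2, with library size alone or with any 1 library left out. Of 18 genes of G1 CDKs, E2F and DREAM, 0 were called by edgeR, DESeq2 or limma-voom and 4 had an unadjusted p under 0.05 (22.2%, beside 20.9% of all tested genes), with a median of -0.06. In edgeR 1 of them, Cdkn1c, passed with robust dispersion estimates and with a filter of 1 CPM in 2 libraries.

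The Bcl2 family and caspases held 2 rises among 16 genes (12.5%, beside 6.97% of all tested genes called in either direction and 3.74% higher). Bad, a BH3-only gene, had 32.9 and 34.5 CPM with Cre, against 26.9 and 26.3 CPM with GFP (log2 fold change 0.34, SE 0.09, adjusted p = 0.0142). Bcl2l1, which encodes the survival protein Bcl-xL, had 78.5 and 83.5 CPM with Cre, against 66.4 and 70.9 CPM with GFP (0.24, SE 0.07, adjusted p = 0.0331). The 2 called genes were thus a death gene and a survival gene. In edgeR 6 of the 16 had an unadjusted p under 0.05 (37.5%, beside 20.9% of all tested genes). Besides Bad and Bcl2l1 these were Bmf (0.86), Bcl2l11 (0.25) and Bak1 (0.18), higher with Cre, and Bcl2 (-0.28), lower. None of these others passed. Of the 16 genes 9 had a log2 fold change above 0, and the median was 0.04. Among 12 senescence genes 2 were called (16.7%, beside the same 6.97%). Their median log2 fold change was 0.05, with a range of -0.51 to 0.25, and 8 of the 12 were above 0. In edgeR 5 had an unadjusted p under 0.05 (41.7%, beside 20.9% of all tested genes). Besides the 2 called, these were Lmna (0.19), Ccl2 (0.19) and Il6 (-0.51). Of these, Lmna passed in limma-voom and with robust dispersion estimates. Glb1, the lysosomal galactosidase measured in senescence stains, rose (0.25, adjusted p = 0.0431) and Hmga2, a chromatin protein of growing stromal cells, fell (-0.37, adjusted p = 0.000806). With DESeq2 Bad, Bcl2l1 and Glb1 did not pass and Hmga2 did, and with scaling by library size alone Bcl2l1 and Glb1 did not. With any 1 library left out Bad, Bcl2l1 and Glb1 did not pass, and Hmga2 passed without Cre replicate 1 and in no other such fit. The counts of Bad are uncertain, since 20.5% of its exon bases overlap Gpr137.

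Whether lower mitosis genes go with p53 activity was examined by setting the p53 genes beside 34 genes of mitosis and the G2/M transition. These 34 were chosen with earlier results of these data known, which may have shaped their called share and common sign. Of the 34, 20 fell with Cre and 0 rose in edgeR (58.8%, beside 6.97% of all tested genes), and all 34 had a log2 fold change below 0, with a median of -0.32. DESeq2 called 5 of them lower (Prc1, Hmmr, Cenpf, Kif20a and Top2a) and limma-voom 20. With scaling by library size alone edgeR called 8, and with no low-count filter 0. With 1 library left out, 9 were called without Cre replicate 1, 7 without Cre replicate 2, and 0 without GFP replicate 1 or GFP replicate 2. The medians stayed between -0.37 and -0.28 over all the alternatives run. Counts in bulk RNA do not tell fewer cells in mitosis from less RNA per cell.

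The mitosis genes with the smallest adjusted p show the size of the fall. Cenpf, a kinetochore protein gene, had 23.5 and 20.3 CPM with Cre, against 34.9 and 35.3 CPM with GFP (log2 fold change -0.68, SE 0.09, adjusted p = 8.70e-06). Hmmr, which encodes a spindle protein, had 21.2 and 24.0 CPM with Cre, against 32.2 and 30.8 CPM with GFP (-0.48). The spindle motor gene Kif11 had 24.7 and 23.6 CPM with Cre, against 33.7 and 32.4 CPM with GFP (-0.46). In all of these the Cre libraries lay below the GFP libraries, by more than any gene of the p53 list. Kif20a (-0.42) and Prc1 (-0.40), both of the midzone of the dividing cell, and the topoisomerase gene Top2a (-0.32) also fell. Of the exon bases of Kif20a 29.3%, and of those of Prc1 11.1%, overlap another gene, so their counts are uncertain.

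Summed over the 34 genes, mitosis stood at 1048 and 1004 CPM in the Cre libraries, against 1254 and 1310 CPM in the GFP libraries. Cdkn1a, at 509 and 548 CPM with Cre and 493 and 479 CPM with GFP, was higher in both Cre libraries. Mdm2, the other p53 target most often read as a sign of p53 activity, was lower in both Cre libraries. Neither Cdkn1a nor Mdm2 passed the test. Eda2r, which was called, was lower in both Cre libraries. Trp53 itself overlapped. With 4 libraries in 2 groups no correlation was computed. Whether the lower mitosis genes go with p53 activity was therefore not tested; what was measured is a fall of 20 mitosis genes beside a p53 list of which 3 genes rose, 1 fell and 38 of 42 did not pass. A direct test of whether the lists differ was not made.

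Genes of DNA replication, which act earlier in the cycle, differed by less. Of 28, 1 fell (3.57%, beside 6.97% of all tested genes called), the polymerase gene Pole (log2 fold change -0.40, adjusted p = 0.00634; not past the threshold without Cre replicate 2, GFP replicate 1 or GFP replicate 2), with 0 called by DESeq2 and 9 at an unadjusted p under 0.05 in edgeR. Those 9 were 32.1% of the replication genes, beside 20.9% of all tested genes. Of the replication genes 28.6% had a log2 fold change above 0, beside 48.9% of all tested genes. The median of the replication genes was -0.10, against -0.32 for mitosis, and the difference between the lists was not tested.

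**Figure D4:**
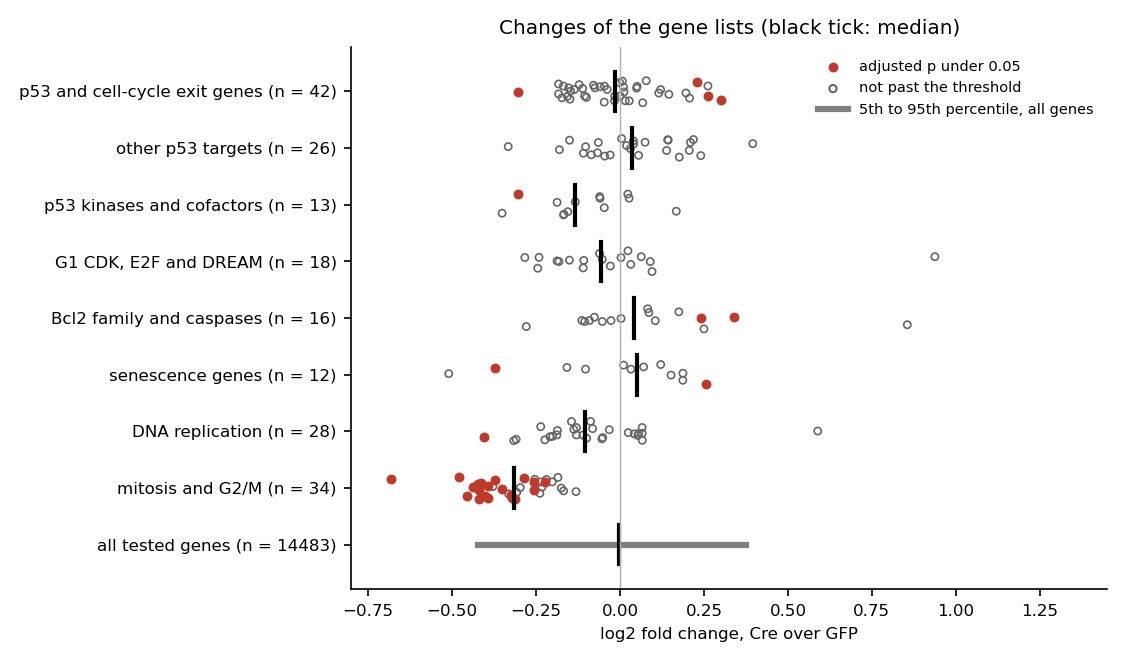
Log2 fold change, Cre over GFP, of each gene in 8 lists (points, filled where the adjusted p is under 0.05), with the median of each list as a black tick and the 5th to 95th percentile of all tested genes as a bar. The p53 and cell-cycle exit genes and the other p53 targets centre near 0, and the 34 mitosis genes all lie below 0 with a median of -0.32. The lists were chosen with earlier results of these data known.

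The CHR element was searched for in the same windows, as TTTGAA on either strand. Of the 30 windows of mitosis genes, 23 (76.7%) held it, beside 17.9% of all windows, 12.2% of those of the p53 list (5 of 41) and 8.0% of those of replication genes (2 of 25). In 19 mitosis genes it began within 40 bases of the start. The windows of 5 genes that fell are given from 40 bases before the start, 5′ to 3′ on the strand of the gene, with the element in capitals.
Cenpf, chr1:189688067-189688126, minus strand: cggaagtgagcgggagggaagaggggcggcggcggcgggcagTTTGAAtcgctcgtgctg
Hmmr, chr11:40733418-40733477, minus strand: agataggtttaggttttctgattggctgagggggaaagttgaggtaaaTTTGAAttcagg
Kif11, chr19:37376342-37376401, plus strand: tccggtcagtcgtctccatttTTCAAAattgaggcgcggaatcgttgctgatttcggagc
Prc1, chr7:80294411-80294470, plus strand: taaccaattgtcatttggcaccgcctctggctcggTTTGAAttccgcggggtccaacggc
Top2a, chr11:99024170-99024229, minus strand: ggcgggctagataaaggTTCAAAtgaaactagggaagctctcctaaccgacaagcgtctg
The element was held by 12 of the 15 mitosis genes with a window that fell, and by 9 of the 13 that were not called. A match is a description of letters and does not show that a factor binds there.

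**Figure D5:**
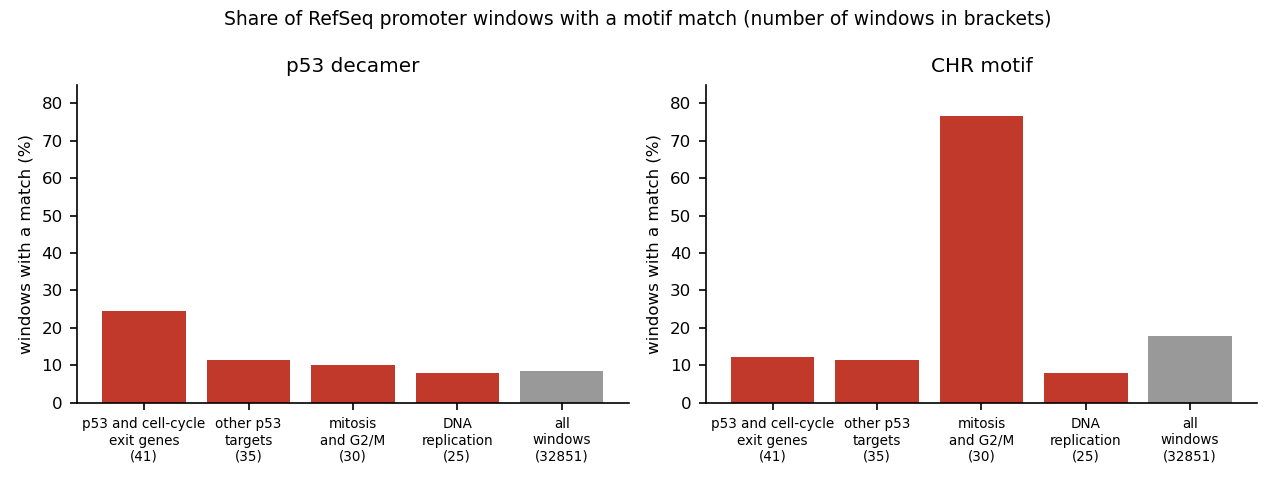
Share of RefSeq promoter windows, in percent, that hold a p53 decamer (left) or the CHR element TTTGAA (right), for 4 gene lists and all windows. Decamers stand in 24.4% of the windows of the p53 list and CHR elements in 76.7% of those of mitosis genes, beside 8.36% and 17.9% of all windows. In the windows of the other p53 targets the share with a decamer is 11.4%.

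Summed cell type markers differed between the groups as well. The 9 stromal markers summed to 19422 and 20449 CPM with Cre, against 15590 and 15443 CPM with GFP, and all 9 were detected. Col1a1 and Col1a2 made up most of this, with 18080 and 19083 CPM with Cre, against 14045 and 13979 CPM with GFP. The other 7 summed to 1342 and 1366 CPM with Cre, against 1545 and 1464 CPM with GFP, the opposite order. Of the 9, 3 were called higher (Col1a1, Col1a2 and Thy1) and 1 lower (Cxcl12), which is 44.4%, beside 6.97% of all tested genes. Of the same 9, 5 had a log2 fold change below 0, and the median was -0.05. The 12 macrophage markers summed to 2465 and 2452 CPM with Cre, against 2081 and 2149 CPM with GFP. Lyz2 alone made up most of this, with 1685 and 1697 CPM with Cre, against 1388 and 1409 CPM with GFP. Of the 12, 5 were called higher (Cd68, Lyz2, C1qb, Mrc1 and Tyrobp) and 1 lower (Adgre1, log2 fold change -0.30). That is 50%, beside 6.97% of all tested genes. There were 9 macrophage markers with a log2 fold change above 0, and the median was 0.20. Endothelial markers summed to 7.82 and 7.67 CPM with Cre and 9.97 and 9.62 CPM with GFP. Erythroid and B cell markers summed to less than 1 CPM in every library, and Hba-a1 was at 0 in all 4. The part of the macrophage and collagen differences in the values of Pmaip1, Plk2, Ccng2, Eda2r and the mitosis genes was not tested.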

How the data were processed

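RNA was sequenced from 4 libraries made from 1 µg of total RNA with an Illumina TruSeq kit that keeps no strand, per the labels. The values deposited are unscaled read counts for each gene. HISAT2 was the aligner and GRCm38 the genome build, per the submitters' processing notes, and the sources used here give no counting program, annotation or strand setting. Counts were tested with edgeR 4.0.16 in R 4.3.3: filterByExpr (minimum count 10, minimum total 15), TMM scaling (factors 0.951 to 1.03), quasi-likelihood F-test on group alone, Benjamini-Hochberg over 14483 genes. SEs and 95% intervals came from the same fit. CPM used TMM-scaled library sizes, and CPM per kb the union exon length in GENCODE M21. Promoter windows and gene positions came from RefSeq GRCm38.p6. Alternatives used DESeq2 1.42.0, limma 3.58.1, other scalings and filters, robust dispersions, a replicate block and each library left out. Counts were also simulated for 14054 genes, with 50 genes changed at each fold size. All genes were given 1 common dispersion (coefficient of variation 4.73%), and no library was made to stand apart as GFP replicate 2 does. There, 40% of 1.25-fold, 78% of 1.5-fold and 90% of 2-fold changes were recovered, with 6 false among 156 calls. Because the settings are simpler than the data, these shares do not measure recovery or false calls in the data. Intervals and floors cover counting error and the spread between these libraries.

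The genes of the list and all other lists were chosen with earlier results of these data known. The genes named were Setd2, all 43 listed genes, and of each other list up to 6 called genes with the smallest adjusted p at a mean of at least 1 CPM. Steap3, Cdkn1c, Bmf, Bcl2l11, Bak1, Bcl2, Lmna, Ccl2 and Il6 were named after their values were seen. So were the 4 called stromal markers, the called macrophage markers and the examples Ppm1d and Gdf15.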

Additional observations from a re-analysis of the deposited data

How the results depend on the processing

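With TMM replaced by median-of-ratios size factors, with limma-voom, with a filter of 1 CPM in 2 libraries, and without abundant noncoding genes, the counts called over all genes, the p53 list, mitosis and replication stayed within 1.5 times those reported, and 0 other p53 targets were called; the 1 CPM filter called 1 of the G1 CDK, E2F and DREAM genes (Cdkn1c), against 0. Scaling by library size alone left 530 genes called, 0 of the p53 list and 8 of mitosis. DESeq2 left 378, 0 and 5, with 0 replication genes. No low-count filter left 30, 0 and 0, with 0 replication genes. Robust dispersions called 1 other p53 target. With each library left out in turn, 0 to 516 genes, 0 to 1 of the list, 0 to 9 of mitosis and 0 to 1 of replication were called; without GFP replicate 2 the count was 0 by edgeR, Setd2 included, with 2197 genes at an unadjusted p below 0.05, while 1008 of the 1009 called genes kept their sign. Such fits assume that the lone library varies like the others. Why the counts moved was not tested. Ccng2, Pmaip1, Plk2 and Eda2r kept their direction under every alternative run. Their adjusted p was 0.161, 0.205, 0.0600 and 0.168 with DESeq2 and 0.0792, 0.0664, 0.0667 and 0.102 with library size alone.

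Replicate numbers are shared between the groups, but deviations of same-numbered libraries had a correlation of -0.024 over 13756 genes, so the numbers were not taken to pair them. With a replicate block, 829 genes, 4 of the list, 16 of mitosis, 1 of replication and 0 other p53 targets were called, and Glb1 and Bcl2l1 no longer passed.

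Some genes of the list, none of them called in edgeR as reported, changed sign; their log2 fold changes were under 0.1 in size except that of Cdkn2c (-0.15). Fas was at 0.0014 with median-of-ratios factors, 0.031 with library size alone, 0.0051 with DESeq2, 0.0082 with no filter and 0.0045 with 1 CPM. Library size alone put Cdkn1b at 0.015 and Btg1 at 0.016. Bbc3 was at -7.8e-05 with limma-voom, -0.00064 with the replicate block and -0.00096 without noncoding genes. With 1 library left out, Trp53 ran from -0.041 to 0.10, Cdkn1b from -0.058 to 0.031, Cdkn2b from -0.075 to 0.11, Cdkn2c from -0.33 to 0.021, Rbl2 from -0.013 to 0.028, Btg1 from -0.033 to 0.0079, Gadd45g from -0.035 to 0.060, Bax from -0.0029 to 0.17, Bbc3 from -0.030 to 0.031, Fas from -0.058 to 0.061, Sesn1 from -0.066 to 0.097 and Sesn2 from -0.17 to 0.026.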
